A study of Mus musculus with 7 samples.

Results

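Neutrophil precursors pass through a promyelocyte stage in which the contents of the primary (azurophil) granules are made, and 10 genes of that stage were followed in mouse bone marrow. They are Mpo, Elane, Prtn3, Ctsg, Ms4a3, Hdc, Cst7, Cebpe, Gfi1 and Nkg7, chosen by name as azurophil granule and promyelocyte genes, and all 10 were found among the 35498 genes listed and among the 14238 tested. RNA of bone marrow, labelled as tissue, from female mice aged 5 to 6 months was sequenced as strand-specific mRNA libraries, 3 from Aim2 knock out (KO, also called AIM2 null) mice and 4 from wild-type (WT) mice. The labels give no treatment, strain, promoter, Cre or floxed allele, and do not say which part of Aim2, the gene of a cytosolic DNA sensor, was removed or whether each library came from its own mouse. P-values therefore measure the spread between these libraries, which may be technical. By its title, the series is concerned with adipocyte formation in marrow after loss of Aim2.

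Primary granule proteins are transcribed early in neutrophil development and switched off before the secondary (specific) granules form, so their mRNAs mark precursors and not mature neutrophils. The serine proteases among them are made as inactive precursors, trimmed by cathepsin C and stored on the proteoglycan serglycin, and myeloperoxidase is packed into the same granules. The transcription factor C/EBP epsilon drives the step towards secondary granules, and Gfi1 is a repressor that neutrophil formation needs.

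Each library held 20289035 to 21087024 estimated reads in annotated genes. Aim2 had 157, 47 and 59 reads in the KO libraries, against 601, 573, 535 and 533 reads in the WT libraries, so each library labelled KO was below each WT library. The call on Aim2 (log2 fold change -2.76 ± 0.38, SE; Benjamini-Hochberg adjusted p = 0.028 from edgeR's quasi-likelihood fit) was lost in 6 of 7 fits that left out a library (adjusted p 0.0538 to 0.097), and held without KO library 1 (4.96e-04). On the authors' TPM scale Aim2 was at 10.4, 5.73 and 7.61 in the KO libraries, against 16.2, 18.2, 19.0 and 16.2 in the WT libraries, a smaller difference. Over 18 alternatives the log2 fold change of Aim2 ran from -3.49 to -1.08, the smallest on log2(TPM + 1), and 9 passed the threshold. KO library 1 kept the most Aim2 reads of the KO libraries. The share of haemoglobin genes was 11.3 to 13.7% of reads for KO libraries and 13.8 to 19.9% for WT libraries. WT library 1 stood apart, with the highest haemoglobin share and the lowest share of reads on the 10 genes. The 10 genes held 0.308, 0.346 and 0.380% of all reads in the KO libraries, against 0.195, 0.326, 0.301 and 0.295% in the WT libraries. Outside haemoglobin their share was 0.353, 0.401 and 0.429% in KO, against 0.243, 0.385, 0.349 and 0.349% in WT, so WT library 1 was lowest there too. In bulk marrow RNA, fewer cells of a type and less RNA per cell cannot be told apart.

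The genes lie on 7 chromosomes (GENCODE M21 on GRCm38). Prtn3 (chromosome 10, 79874476 to 79883174) and Elane (79886247 to 79888215) are neighbours on the plus strand, 3072 bases apart. Promoter windows from RefSeq (GRCm38.p6, 250 bases before to 50 after the start) were found for 9 of the genes, in 10 windows. The motifs searched were chosen with these sequences in view, so their counts are a description and not a test. The motif AGGAAGT, a site for ETS factors such as the myeloid factor PU.1, was present on either strand in 5 of these 10 windows, against 9.35% of the 32851 windows of all genes. The 5 windows that hold it are shown because they include all of the serine proteases and Mpo, with the motif in capitals. Each stretch runs 5′ to 3′ on the gene's strand and stops before the first annotated transcript start in the window.
Elane, chr10:79886062-79886246, plus strand: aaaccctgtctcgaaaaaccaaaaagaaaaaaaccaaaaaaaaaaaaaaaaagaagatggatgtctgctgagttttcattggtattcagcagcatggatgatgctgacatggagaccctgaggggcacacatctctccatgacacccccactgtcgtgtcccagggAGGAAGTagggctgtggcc
Prtn3, chr10:79879417-79879613, plus strand: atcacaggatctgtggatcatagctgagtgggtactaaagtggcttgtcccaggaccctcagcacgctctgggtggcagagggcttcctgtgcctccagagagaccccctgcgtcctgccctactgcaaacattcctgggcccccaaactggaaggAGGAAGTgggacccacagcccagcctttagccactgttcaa
Ctsg, chr14:56102575-56102824, minus strand: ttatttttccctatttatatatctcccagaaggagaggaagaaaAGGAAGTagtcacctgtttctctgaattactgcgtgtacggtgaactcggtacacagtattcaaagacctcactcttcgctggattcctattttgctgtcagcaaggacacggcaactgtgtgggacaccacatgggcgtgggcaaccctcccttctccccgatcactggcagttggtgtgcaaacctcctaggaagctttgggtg
Mpo, chr11:87793534-87793580, plus strand: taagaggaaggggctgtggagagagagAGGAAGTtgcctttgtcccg
Cst7, chr2:150570165-150570414, plus strand: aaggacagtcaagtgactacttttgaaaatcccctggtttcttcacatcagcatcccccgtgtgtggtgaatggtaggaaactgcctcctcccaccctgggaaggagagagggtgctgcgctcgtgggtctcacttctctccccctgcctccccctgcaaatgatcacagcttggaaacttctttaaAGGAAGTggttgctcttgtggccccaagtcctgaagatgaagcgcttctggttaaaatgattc
In the windows of Prtn3 and Elane the motif began 94 and 84 bases before the RefSeq start (offsets -94 and -84) and did not overlap another searched motif. The Myb motif CAACNG was in 5 of the 10 windows, in Ctsg, Elane, Hdc, Nkg7 and Prtn3, against 35.0% of all windows. The Runx motif TGTGGT was in 3, against 16.8%, and the C/EBP motif TTNNGNAA in 3, against 40.7%. A match describes these letters and does not show that a factor binds there. Most Mpo reads were assigned to a transcript that starts downstream of the window shown (Mpo-203, from 87794209).

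In KO marrow none of the 10 genes differed from WT marrow past an adjusted p of 0.05. This count of 0 of 10 is from edgeR's quasi-likelihood test, which called 0.646% of all tested genes (0.478% higher and 0.169% lower in KO). DESeq2, which called 2.84% of all tested genes, and limma voom with sample weights, which called 2.14%, called 0 of 10 as well. Without adjustment, p was under 0.05 for 3 of the 10 (Hdc, Cst7 and Nkg7, each higher in KO), against 11.5% of all tested genes in either direction and 6.45% higher in KO. In each of the 10 the KO and WT libraries overlapped. No overlap was found for 12.9% of all tested genes (6.95% higher and 5.94% lower in KO), a share from which 0 of 10 is not far. WT library 1 was the lowest of the 7 libraries for 7 of the 10 genes, which held for 23.7% of all tested genes. A log2 fold change above 0 was found for 9 of the 10, against 47.3% of all tested genes, with a median of 0.27 (all tested genes -0.01). The 95% interval of each gene, taken without adjustment, lay within a 2-fold change in either direction.

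**Figure D1:**
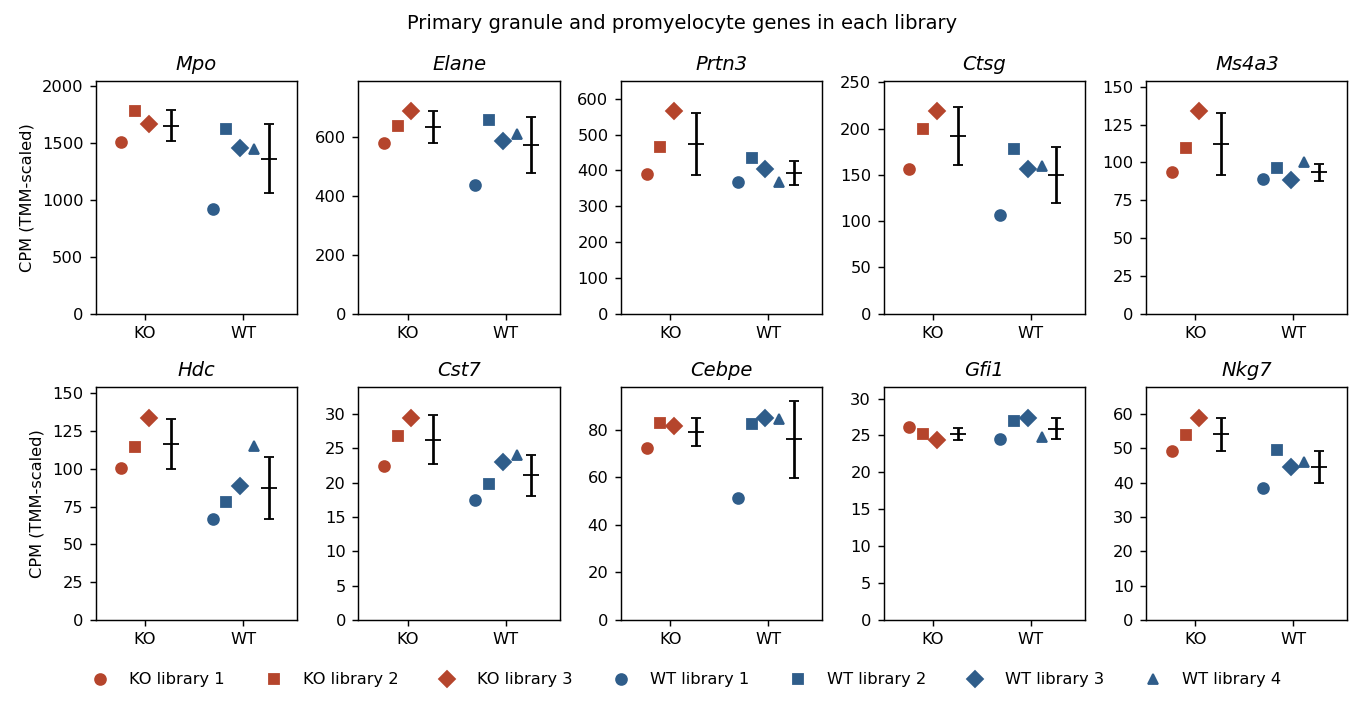
Level of each of the 10 genes in CPM (reads scaled to a common library total with TMM factors), with 3 KO libraries in red and 4 WT libraries in blue and the mean with SD beside each group. WT library 1 (blue circle) is the lowest library for 7 genes and KO library 3 (red diamond) the highest for 7.

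Mpo encodes myeloperoxidase, the haem enzyme that makes hypochlorous acid. Its level was 1509.5, 1779 and 1668 CPM in the KO libraries, against 924, 1621.5, 1455 and 1444 CPM in the WT libraries. WT library 1 was at 61.3% of the mean of the other WT libraries, and WT library 2 lay above KO library 1. The means were 1652 ± 135 CPM in KO (SD, n = 3) and 1361 ± 303 CPM in WT (SD, n = 4). The fold was 1.21 (95% interval 0.909 to 1.62; adjusted p = 0.623; unless another tool is named, p-values in the text are from the edgeR fit). Without WT library 1 the log2 fold change of Mpo was 0.13, against 0.28 with all libraries.

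Elane encodes neutrophil elastase, a serine protease whose human gene is the one most often mutated in congenital neutropenia. It stood at 577, 638 and 686 CPM in the KO libraries, against 435, 656, 584 and 609 CPM in the WT libraries. The lowest was WT library 1, and the other 3 WT libraries lay within the KO range. The fold was 1.11 (95% interval 0.886 to 1.39; adjusted p = 0.751), and the log2 fold change of Elane was 0.15 with all libraries and 0.04 without WT library 1.

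Prtn3, the gene of proteinase 3, a protease close to elastase and a target of autoantibodies in human vasculitis, had 390.4, 464 and 565 CPM in the KO libraries, against 367, 435, 403 and 367 CPM in the WT libraries. KO library 3 was well above the rest, and KO library 1 lay within the WT range. The means were 473 ± 87.5 CPM in KO (SD, n = 3) and 393 ± 32.7 CPM in WT (SD, n = 4), a fold of 1.20 (95% interval 0.98 to 1.48; adjusted p = 0.484). For Prtn3 the log2 fold change was 0.27 with all libraries, 0.12 without KO library 3 and 0.24 without WT library 1.

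Ctsg encodes cathepsin G, a chymotrypsin-like protease of the same granules. Its level was 157, 200.2 and 219 CPM in the KO libraries, against 107, 178, 157 and 159 CPM in the WT libraries. As for Mpo, WT library 1 was low, at 64.9% of the mean of the other WT libraries. The fold was 1.28 (adjusted p = 0.508), and the log2 fold change of Ctsg was 0.35 with all libraries (95% interval -0.06 to 0.76) and 0.22 without WT library 1.

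The CPM ratio of each other gene to Elane, which compares libraries and not the levels of 2 genes, separated the groups for 1 of 9 genes. That gene was Ctsg, whose ratio to Elane was 0.272, 0.314 and 0.319 in the KO libraries, against 0.246, 0.271, 0.268 and 0.262 in the WT libraries. The lowest KO value and the highest WT value were nearly equal. Of all tested genes, 8.59% had a ratio to Elane without overlap. The Prtn3 ratio was highest in WT library 1 (0.844) and in KO library 3 (0.823). All these ratios used gene totals, and the Prtn3 total included a transcript annotated as a retained intron. That transcript held 38.2% of Prtn3 reads in WT library 1, against 24.2 to 25.0% in the other WT libraries. In the KO libraries it held 23.2 to 27.9%. Whether the coding transcript of Prtn3 alone separates the groups or sets WT library 1 apart was not tested.

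Ms4a3, a membrane protein of granulocyte and monocyte progenitors, had 93.6, 109 and 134 CPM in the KO libraries, against 89.1, 96.0, 88.4 and 100.5 CPM in the WT libraries. The WT libraries were close together and KO library 3 was the highest. The fold was 1.20 (95% interval 0.994 to 1.45; adjusted p = 0.448), and without KO library 3 the log2 fold change of Ms4a3 was 0.11, against 0.26 with all libraries.

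Hdc encodes histidine decarboxylase, the enzyme that makes histamine, which is expressed in myeloid precursors and in basophils. Its level was 101, 115 and 134 CPM in the KO libraries, against 66.9, 78.1, 88.5 and 115 CPM in the WT libraries. WT library 4 reached the level of KO library 2, and the WT libraries were the more spread out. The means were 116 ± 16.7 CPM in KO (SD, n = 3) and 87.1 ± 20.6 CPM in WT (SD, n = 4). The fold of Hdc was 1.34 (95% interval 1.00 to 1.78), the highest of the 10 genes. Its edgeR p was 0.0475 before adjustment and its adjusted p 0.434. Over the 18 alternatives the adjusted p of Hdc lay between 0.072 and 0.686, and its log2 fold change between 0.30 and 0.59.

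Cst7 encodes cystatin F, an inhibitor of cathepsins including cathepsin C. It had 22.5, 26.9 and 29.5 CPM in the KO libraries, against 17.5, 19.8, 23.0 and 24.1 CPM in the WT libraries. KO library 1 lay within the WT range. The fold was 1.25 (95% interval 1.00 to 1.55), with an edgeR p of 0.0481 before adjustment and an adjusted p of 0.434.

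Nkg7, a membrane protein of cytotoxic granules that is also transcribed in granulocyte precursors, had 49.1, 54.0 and 59.0 CPM in the KO libraries, against 38.4, 49.6, 44.5 and 45.9 CPM in the WT libraries. The groups overlapped only in that WT library 2 was slightly above KO library 1. The fold was 1.21 (95% interval 1.03 to 1.42), and Nkg7 had the smallest p of the 10 genes, 0.0237 before adjustment and 0.348 after it.

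Both transcription factors had group means close to each other, 79.0 CPM in KO and 76.0 CPM in WT for Cebpe and 25.2 CPM in KO and 25.9 CPM in WT for Gfi1. Cebpe, the gene of C/EBP epsilon, had 72.3, 83.0 and 81.7 CPM in the KO libraries, against 51.5, 82.5, 85.2 and 84.8 CPM in the WT libraries. WT library 1 was at 61.1% of the mean of the other WT libraries. WT library 2 lay just below the highest KO library, and WT libraries 3 and 4 lay above all KO libraries. The log2 fold change of Cebpe was 0.06 ± 0.17 (SE; adjusted p = 0.943) and turned to -0.09 without WT library 1 and to -0.027 with voom sample weights. Gfi1 had 26.1, 25.1 and 24.4 CPM in the KO libraries, against 24.6, 26.9, 27.4 and 24.8 CPM in the WT libraries, the narrowest spread of the 10 genes. Its log2 fold change was -0.04 ± 0.07 (SE; 95% interval -0.21 to 0.13; adjusted p = 0.886), and it was above 0 with an offset for transcript length and on TPM values.

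**Figure D2:**
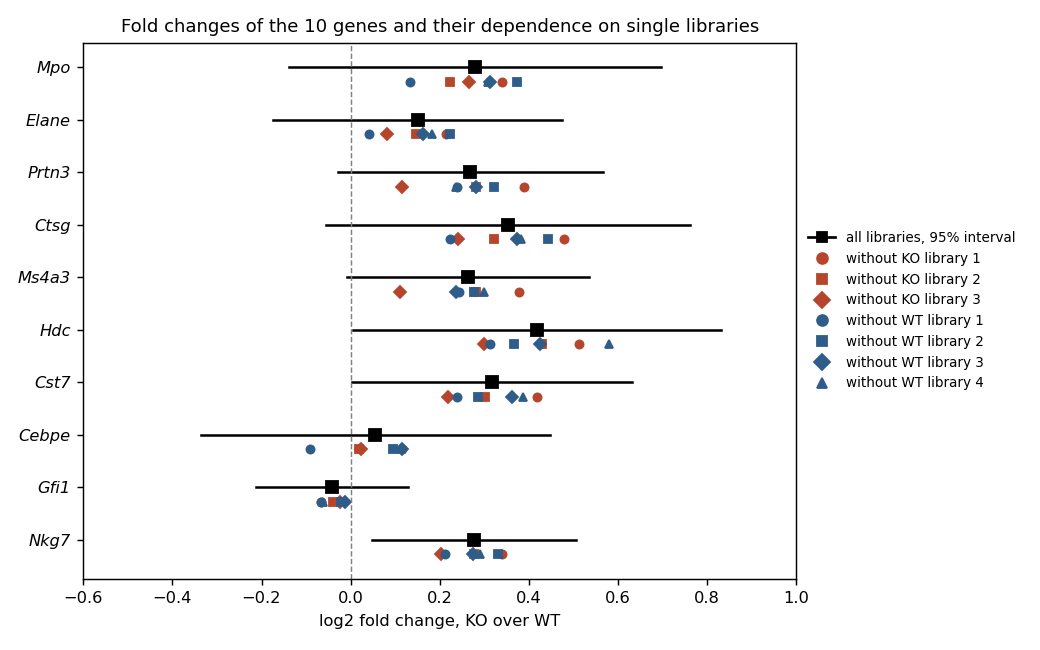
Log2 fold change of each gene, KO over WT, with its 95% interval (black), and below it the value with each library left out (red, a KO library; blue, a WT library). Without WT library 1 (blue circle) Mpo is at 0.13, Elane at 0.04 and Cebpe at -0.09, and without KO library 3 (red diamond) Prtn3 is at 0.12 and Ms4a3 at 0.11.

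On TPM, a scale per transcript length on which genes can be compared with each other, Elane, Mpo and Prtn3 took the top 3 places in every library. Elane was at 801 ± 83.0 TPM in KO and 667 ± 160.2 TPM in WT, Mpo at 795 ± 60.6 TPM in KO and 634 ± 157 TPM in WT, and Prtn3 at 688 ± 155 TPM in KO and 536 ± 66.4 TPM in WT (SD, n = 3 KO and n = 4 WT). Differences between these levels were not tested. The Prtn3 level included Prtn3-204, annotated as a retained intron, and the coding transcript Prtn3-201 alone was at 216 TPM (WT library 1) to 504 TPM (KO library 3). The order among the 3 genes changed between libraries, with Elane first in all but KO library 2 and WT library 1. Ctsg came next in every library, at 238 ± 40.2 TPM in KO and 172 ± 46.3 TPM in WT, followed in every library by Ms4a3 at 149 ± 28.5 TPM in KO and 114 ± 15.6 TPM in WT. Cebpe and Nkg7 shared the next 2 places, with Cebpe at 79.2 TPM in KO and 71.2 TPM in WT and Nkg7 at 80.6 TPM in KO and 61.2 TPM in WT. Hdc (51.3 TPM in KO and 35.0 TPM in WT), Cst7 (34.5 TPM in KO and 25.5 TPM in WT) and Gfi1 (12.7 TPM in KO and 11.4 TPM in WT) closed the order in every library.

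Across the 7 libraries the 9 genes other than Gfi1 varied together, Cebpe mainly through WT library 1. The Pearson r of log2 CPM between 2 genes other than Gfi1 was 0.38 to 0.97 over 36 pairs, with a median of 0.80. These points share library, depth and marrow make-up, so the r values are a description. Without WT library 1 the same 36 pairs ran from -0.15 to 0.95 with a median of 0.69. The pairs with Cebpe among them then ran only from -0.15 (Nkg7) to 0.33 (Elane). The 9 pairs with Gfi1 ran from -0.56 to 0.37 (median -0.12), and from -0.94 to -0.01 (median -0.60) without WT library 1, so all 9 were then negative. As the mean of the 10 genes' log2 CPM after centring each gene on its own mean, the libraries stood at -0.03, 0.16 and 0.28 in KO, against -0.40, 0.01, -0.03 and 0.01 in WT. KO library 1 lay among WT libraries 2 to 4, and KO libraries 2 and 3 lay above them.

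**Figure D3:**
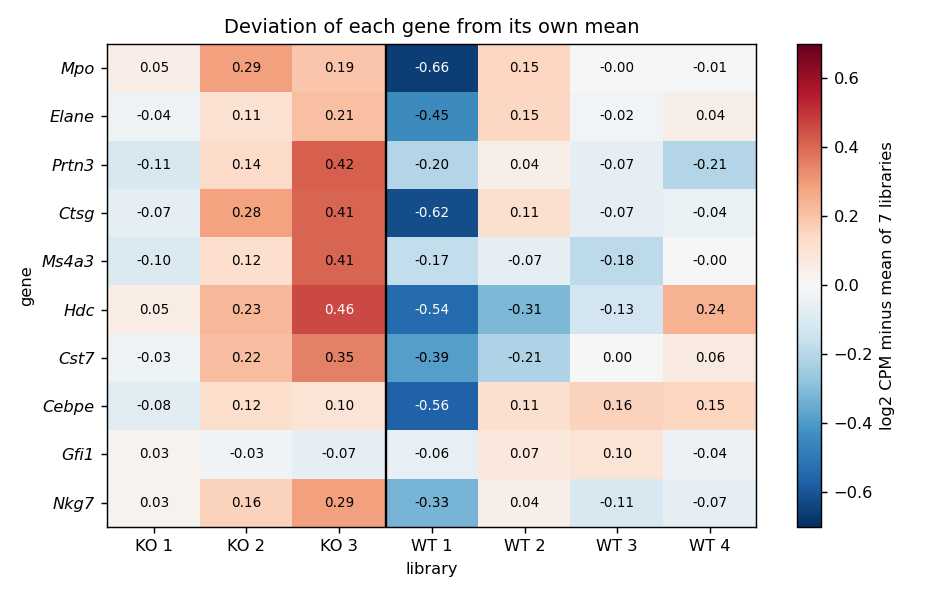
Log2 CPM of each gene minus its own mean over the 7 libraries, KO on the left and WT on the right. WT library 1 is the lowest column, with a mean of -0.40 over the 10 genes, and KO library 3 the highest, with a mean of 0.28, while Gfi1 stays within 0.10 of its mean.

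Out of 9376 other tested genes (mean level 10 CPM or more), those whose log2 CPM followed this mean of the 10 genes most closely over the 7 libraries were Wdr1, Cd48, Nfil3, Ly6c2 and Chst12 (Pearson r 0.99 for each, as a description). Without WT library 1 their r was between 0.95 and 0.98. Wdr1 is an actin-disassembly factor, Cd48 a surface ligand of blood cells, Nfil3 a leucine zipper transcription factor, Ly6c2 a marker of inflammatory monocytes and Chst12 a sulfotransferase of chondroitin. Ly6c2 is also in the monocyte list used here, and Wdr1 in that of neutropenia genes. Ly6c2 ranged over 385 to 565 CPM in the KO libraries and 211 to 359.9 CPM in the WT libraries (log2 fold change 0.60, adjusted p = 0.318), and Wdr1 over 265 to 307 CPM in the KO libraries and 212 to 269 CPM in the WT libraries (log2 fold change 0.20, adjusted p = 0.491).

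The split of reads between transcripts, which Salmon estimates with a model, stood apart in single libraries for Prtn3, Mpo and Gfi1. Prtn3 reads fell mainly on the coding transcript Prtn3-201 and on Prtn3-204, annotated as a retained intron (chromosome 10, 79880980 to 79883174). Prtn3-204 held 23.2, 24.1 and 27.9% of the gene's reads in the KO libraries, against 38.2, 25.0, 25.0 and 24.2% in the WT libraries. WT library 1 was far above the rest, and the other 3 WT libraries lay within the KO range. Prtn3-201 held 58.6% in WT library 1, against 71.6 to 71.9% in the other WT libraries. The short coding transcript Mpo-205 had 1.96, 2.14 and 3.21% of Mpo reads in the KO libraries, against 6.25, 2.86, 3.03 and 3.09% in the WT libraries, again with WT library 1 highest. The retained-intron transcript Ms4a3-203 (chromosome 19, 11631902 to 11640851) held 11.2, 10.9 and 11.0% of Ms4a3 reads in the KO libraries, against 9.46, 9.26, 8.51 and 8.77% in the WT libraries. These groups did not overlap. Of 18 transcripts with a mean share of at least 1% in members with several transcripts, 3 had no overlap (Ms4a3-203, the coding Ms4a3-202 and Prtn3-206), against 6.12% of 28987 transcripts chosen the same way over all genes. The shares of 1 gene add up, so Ms4a3-202 and Ms4a3-203 are not separate observations. Elane, Cebpe and Cst7 each had a single listed transcript, and Gfi1-203 had 0 reads in every library. The main Gfi1 transcript, Gfi1-202, held 87.1, 71.6 and 89.4% of Gfi1 reads in the KO libraries, against 87.7, 87.6, 86.8 and 79.0% in the WT libraries, with KO library 2 and WT library 4 below the rest.

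**Figure D4:**
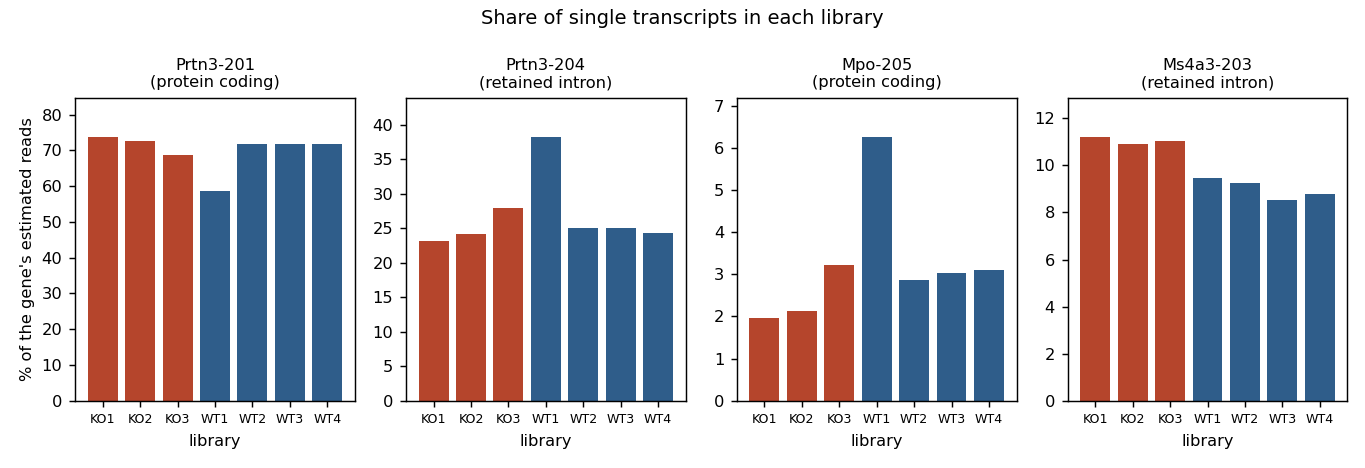
Percent of the gene's estimated reads on 4 transcripts, by library, KO in red and WT in blue. WT library 1 is highest for Prtn3-204 (38.2%) and Mpo-205 (6.25%), and all KO libraries are above the WT libraries for Ms4a3-203.

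Other contents of the primary granule and the genes that process them did not differ past the threshold. Of 20 listed genes 19 were tested and 0 passed (7 at an unadjusted p under 0.05, 6 of them higher in KO). Of their log2 fold changes 15 were above 0, with a median of 0.12. Over all tested genes the unadjusted p was under 0.05 for 11.5% (6.45% higher in KO), and 47.3% of log2 fold changes were above 0. These shares are the background for the counts of each list below. Ctsc, cathepsin C, which activates the serine proteases, averaged 133 ± 16.4 CPM in the KO libraries (SD, n = 3) and 85.6 ± 14.3 CPM in the WT libraries (SD, n = 4). The log2 fold change of Ctsc was 0.64 ± 0.14 (SE), with an adjusted p of 0.122 and no overlap between the groups. DESeq2 put Ctsc at an adjusted p of 0.00204 and voom with sample weights at 0.0358. Arsb, the lysosomal arylsulfatase B, averaged 98.8 ± 8.67 CPM in the KO libraries and 74.7 ± 8.73 CPM in the WT libraries (log2 fold change 0.40; adjusted p = 0.179, and 0.0263 with DESeq2). Serglycin (Srgn) had a log2 fold change of 0.22. Lyz2, the lysozyme of myeloid cells and the most abundant of the list, averaged 3028 ± 18.5 CPM in the KO libraries and 2994 ± 497 CPM in the WT libraries. Bpi was too low for the test. Srgn, Lyz2 and Bpi were named after their values were seen. DESeq2 called 3 of this list and voom 2, against 2.84 and 2.14% of all tested genes.

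Of 16 early myeloid regulators and progenitor markers 0 passed (3 at an unadjusted p under 0.05), with 14 log2 fold changes above 0 and a median of 0.15. Csf2rb, the shared receptor chain for GM-CSF, IL-3 and IL-5, averaged 123 ± 11.5 CPM in the KO libraries (SD, n = 3) and 79.1 ± 11.5 CPM in the WT libraries (SD, n = 4). Its log2 fold change was 0.63 ± 0.13 (SE), with an adjusted p of 0.084, and of 3.28e-04 with DESeq2. For Plac8, expressed in myeloid progenitors, the log2 fold change was 0.57 (adjusted p = 0.197). The factors that act before Cebpe had log2 fold changes of -0.13 for Cebpa, -0.17 for Myb and 0.07 for Runx1, while Spi1, the gene of PU.1, was at 0.31 (adjusted p = 0.448). Cebpa was at -0.29 without WT library 1 or without KO library 3 and above 0 without KO library 1, and Cebpa and Myb were above 0 on TPM values. Runx1 was at 0.036 without KO library 2, and Spi1 at 0.19 without WT library 1. Cebpa, Myb, Runx1 and Spi1 were named after their values were seen. Of the early myeloid list DESeq2 called 2 genes and voom 1, against 2.84 and 2.14% of all tested genes.

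Genes mutated in human congenital neutropenia gave 0 of 12 past the threshold (1 before adjustment, and 0 by DESeq2 or voom), with a median of 0.08. Ap3b1, a subunit of the adaptor that sorts granule proteins, had a log2 fold change of 0.19, and Lyst, a regulator of granule size, of 0.23 (adjusted p = 0.385 and 0.447).

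Genes of the stages after the promyelocyte gave medians of 0.27 and 0.38. Secondary granule genes had 0 of 14 past the threshold (5 before adjustment, 1 by DESeq2 and 0 by voom) and 13 log2 fold changes above 0. The KO libraries were all above the WT libraries for 8 of 14, against 6.95% of all tested genes. The same held for 7 of 14 mature neutrophil, 6 of 12 monocyte lineage and 5 of 19 other primary granule genes. It also held for 5 of 16 early myeloid and 3 of 12 neutropenia genes. Genes of these lists share the same 7 libraries, so they are not separate observations. Anxa1, the anti-inflammatory annexin A1, averaged 658 ± 14.5 CPM in the KO libraries and 482 ± 77.6 CPM in the WT libraries (adjusted p = 0.218). For Hp, haptoglobin, the log2 fold change was 0.43 (adjusted p = 0.299). Mature neutrophil genes had 0 of 14 past the threshold (7 before adjustment, 4 by DESeq2 and 2 by voom, which called 2.84 and 2.14% of all genes) and all 14 log2 fold changes above 0. Il1b, the cytokine interleukin 1 beta, averaged 24.7 ± 3.87 CPM in the KO libraries and 14.5 ± 2.85 CPM in the WT libraries (adjusted p = 0.107). For Fpr1, a receptor for formyl peptides, the log2 fold change was 0.54 (adjusted p = 0.139). Without WT library 1 the medians were 0.22 for the 10 genes, 0.04 for other primary granule genes, 0.08 for early myeloid genes (0.15 with all libraries), 0.17 for secondary granule genes and 0.28 for mature neutrophil genes. Differences between these lists were not tested.

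**Figure D5:**
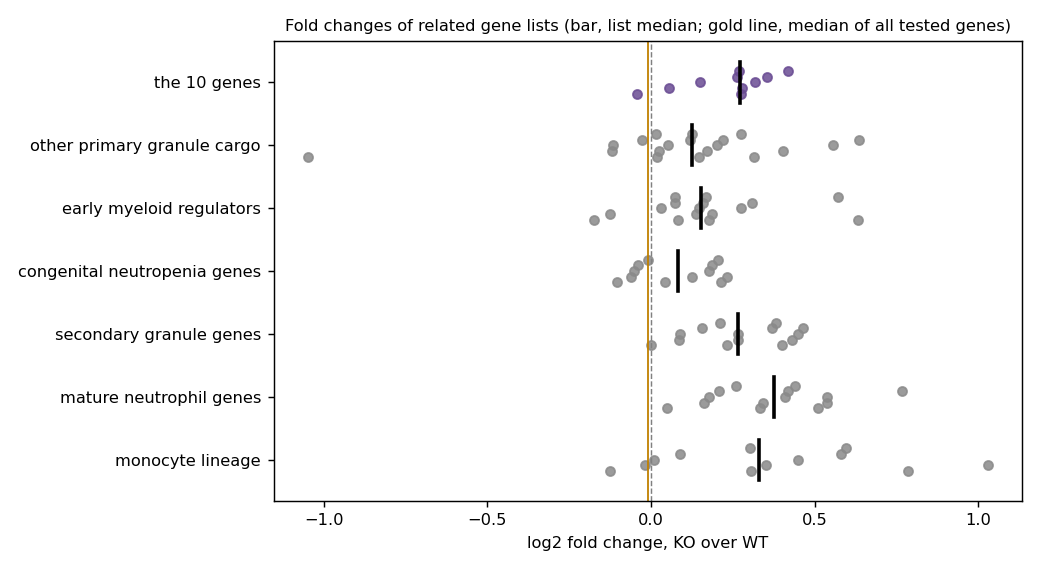
Log2 fold change, KO over WT, of each tested gene in 7 lists, with a bar at each list's median and a gold line at the median of all tested genes (-0.01). The medians are 0.27 for the 10 genes, 0.12 for other primary granule cargo, 0.27 for secondary granule genes and 0.38 for mature neutrophil genes.

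Lists of markers for 8 other cell types or states were read beside the 10 genes, and no marker that was found was at 0 in every library. Tpsb2, Cma1, Mcpt4 and Tph1 of the basophil and mast cell list had only 0 to 5 reads per library (named after their values were seen). They add almost nothing to that list's sum. The edgeR test called 0 genes in each of these 8 lists. Over all tested genes 11.5% had a p under 0.05 before adjustment, and DESeq2 and voom called 2.84 and 2.14%. The 12 monocyte lineage genes summed to 1313 to 1579.9 CPM in the KO libraries and to 869 to 1202 CPM in the WT libraries, where WT library 1 was again lowest. Their median log2 fold change was 0.33 (7 before adjustment, 4 by DESeq2 and 2 by voom). Fcgr1, an Fc receptor of monocytes, and Ms4a6c had log2 fold changes of 1.03 and 0.58 (adjusted p = 0.0657 and 0.0841). The 14 B lineage markers summed to 208 to 334 CPM in the KO libraries and to 433 to 694 CPM in the WT libraries. Their median was -0.93 (12 before adjustment, 8 by DESeq2 and 5 by voom), with -1.21 for Pax5, the B-cell commitment factor, and -0.98 for Cd79a, a chain of the B-cell receptor (adjusted p = 0.0684 and 0.0826). The 11 erythroid markers found of 12 summed to 112326 to 146168 CPM in the KO libraries and to 142779 to 226502 CPM in the WT libraries, highest in WT library 1. Their median was -0.24 (1 before adjustment, 1 by DESeq2 and 0 by voom), with -0.33 for Klf1, the erythroid transcription factor, and -0.45 for Hba-a2, an alpha globin gene. The 12 genes of dividing cells summed to 3591 to 4857 CPM in the KO libraries and to 4337 to 5718 CPM in the WT libraries, lowest in KO library 3 and highest in WT library 1. Their median log2 fold change was -0.10, with 2 of 12 above 0. Pcna and Birc5, with the smallest p of that list, had log2 fold changes of -0.16 and -0.23. In that list 0 genes had a p under 0.05 before adjustment or a call by DESeq2 or voom. The direction of Pcna turned on TPM values. What part these levels have in those of the 10 genes was not tested.

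Some of the 10 genes are also transcribed in other cells. Cytotoxic lymphocytes, which express Nkg7 and Cst7, had 12 markers that summed to 69.8, 66.5 and 55.7 CPM in the KO libraries, against 50.1, 66.5, 68.9 and 66.4 CPM in the WT libraries. KO library 3, the highest for Nkg7 and Cst7, was the lowest KO library for these markers. WT library 1 was the lowest of all 7 libraries for the markers, for Nkg7 and for Cst7. The part of cytotoxic lymphocytes in the Nkg7 and Cst7 levels was not tested. The list's median log2 fold change was 0.06, with 7 of 12 above 0. A p under 0.05 before adjustment was found for 3 of the 12, Cd8a (-0.92, adjusted p = 0.144), Gzma (-0.69, adjusted p = 0.359) and, in the other direction, Gzmb (0.86, adjusted p = 0.394; named after its values were seen). Cd8a was the 1 call by DESeq2, and voom made 0. Basophils and mast cells express Hdc, and their markers summed to 208, 317 and 424 CPM in the KO libraries, against 275, 269, 223 and 291 CPM in the WT libraries. The KO libraries had the same order for these markers as for Hdc, with KO library 3 the highest of all 7 libraries for both. Among the WT libraries, WT library 4 was highest for both, while WT library 1 was lowest for Hdc and WT library 3 for the markers. KO library 1 had the lowest marker sum of all 7 libraries and more Hdc than WT libraries 1 to 3. Of the 7 tested markers 5 had a log2 fold change above 0, and the median was 0.32. The 2 with the smallest p, Fcer1a and Cd200r3, had log2 fold changes of -0.52 and 0.41. Of the 7 tested markers 0 had a p under 0.05 before adjustment or a call by DESeq2 or voom. The part of these cells in the Hdc level was not tested.

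Eosinophil markers summed to 1325, 3086 and 1025 CPM in the KO libraries, against 80.8, 912, 768 and 1662 CPM in the WT libraries, so WT library 1 held by far the least. Ccr3 and Ear2 of that list had log2 fold changes of 0.40 and 1.33 (adjusted p = 0.357 and 0.434; 2 of 9 before adjustment, 0 by DESeq2 and voom). Ear2 was at 0.79 when KO library 2 was left out and at 1.80 when WT library 4 was, and the list's median was 1.02, with 9 of 9 above 0. Skeletal muscle markers summed to 64.3, 849.6 and 6667 CPM in the KO libraries, against 1249, 2323, 1407 and 2401 CPM in the WT libraries. KO library 3, the highest for 7 of the 10 genes, was also the highest for muscle RNA. The muscle list had a median log2 fold change of 0.50, with 10 of 12 above 0. Actn3 and Myh4, with the smallest p of that list, had log2 fold changes of 1.11 and 1.06. Both turned negative without KO library 3, with voom weights, with a replicate block and on TPM values. Of the 12 muscle genes 0 had a p under 0.05 before adjustment or a call by DESeq2 or voom. Without KO library 3 the log2 fold changes of the 7 genes it led were between 0.08 and 0.30, against 0.15 to 0.42 with all libraries, and the part of that library's muscle RNA was not tested.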

How the data were processed

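Strand-specific mRNA libraries of bone marrow were grouped by their titles and the genotype label. FastQC 0.11.9, Salmon 1.7.0, DESeq2 and the build GRCm38.p6 are named in the submitters' processing notes, while the sources used here do not give the annotation release or Salmon's options. The authors deposited estimated counts per transcript, which need not be whole, without further scaling. Their TPM values, also deposited, are relative to effective length and to the library's sum. Each transcript was joined to GENCODE M21 genes by identifier without version; 569 of 116546 had no gene and were left out (at most 0.0662% of reads). Counts were summed per gene, rounded to whole numbers and filtered with edgeR's filterByExpr, and libraries were scaled with TMM factors of 0.918 to 1.06. Genotype was tested with edgeR 4.0.16's quasi-likelihood test (R 4.3.3) over all 14238 genes with Benjamini-Hochberg adjustment and a threshold of 0.05. Fold changes are KO over WT, SE is the absolute log2 fold change over the square root of F, and intervals are at 95% and unadjusted. CPM use library sizes scaled by TMM (20278230 to 21076070 reads in tested genes before scaling), and the 10 genes had 326 to 37017 reads per library. Libraries of the same group all differed by more than sampling noise (chi-square per degree of freedom 9.14 to 55.7).

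The members and lists were chosen with earlier results of these data known, and the motifs with the promoter sequences in view. All 10 members were named, and of every other list the 2 tested genes with the smallest p, and the 5 genes most like the members. No set test was run. The steps were tested on simulated data. The alternatives used DESeq2 1.42.0, limma 3.58.1 voom with sample weights, other filters, a length offset, limma on log2(TPM + 0.1) and log2(TPM + 1), RLE scaling, scaling that leaves out haemoglobin, immunoglobulin and mitochondrial genes, coding transcripts alone, a replicate block and each library left out in turn.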

Additional observations from a re-analysis of the deposited data

Results flagged for a closer look

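Among the 4 WT libraries, 9 of 71 sets of values had a lowest or highest library set far apart from the other 3 (a gap to its neighbour above Dixon's 95% critical value). Chance flags about 1 in 20 such sets, and the sets share libraries and genes.

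WT library 1 was the library apart in 8 of the 9. Its Cebpe level was 51.5 CPM, against 82.5 to 85.2 CPM in the other WT libraries. Its summed level was 4750.1 CPM for other primary granule genes, against 6358 to 6631 CPM. Abundant genes weigh most in such sums, here Lyz2 (2296 CPM, against 3094 to 3471 CPM) and Ctsd (741 CPM, against 1104 to 1209 CPM). The sum was 869 CPM for monocyte lineage genes, against 1160.1 to 1202 CPM. It was 50.1 CPM for cytotoxic lymphocyte genes, against 66.4 to 68.9 CPM, with Ccl5 at 8.52 CPM, against 17.8 to 17.9 CPM. For genes of dividing cells it was 5718 CPM, against 4337 to 4471 CPM. Among transcripts, Mpo-205 held 6.25% of Mpo reads there, against 2.86 to 3.09% elsewhere. Prtn3-201 held 58.6% of Prtn3 reads there, against 71.6 to 71.9%, and Prtn3-204 held 38.2%, against 24.2 to 25.0%.

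WT library 4 was apart for the coding transcript Gfi1-202, which held 79.0% of Gfi1 reads there, against 86.8 to 87.7% in the other WT libraries. KO library 2 had 71.6% on that transcript, so the low share was not limited to WT. Groups of 3 KO libraries were not examined in this way.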

How the results depend on the processing

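For the 10 genes the count of 0 past the threshold held under all 18 alternatives. In the main fit it also held at an adjusted p under 0.1, while the lowest adjusted p of Hdc over the alternatives was 0.072. Direction held for 8 of the 10 genes. Cebpe turned to -0.027 with voom weights and lay between -0.0902 (without WT library 1) and 0.12 with a library left out. Gfi1 turned to 0.027 with the length offset, 0.18 on log2(TPM + 0.1) and 0.16 on log2(TPM + 1). On TPM the median over all genes was 0.13 and 0.10. Muscle genes reversed with voom weights (-1.29 for Actn3, -1.17 for Myh4), on TPM (-0.43 and -0.28 for Actn3, -0.48 and -0.34 for Myh4), with the replicate block (-0.36 and -0.44) and without KO library 3 (-1.69 and -1.51; up to 1.68 and 1.64 with another library left out), and Pcna was at 0.00401 and 0.00402 on TPM. On TPM Cebpa was at 0.026 and 0.024 and Myb at 0.020 and 0.0196. With a library left out Cebpa ran from -0.29 to 0.0095 and Lyz2 from -0.0908 to 0.0948 (-0.0708 with voom weights). The cause was not tested.

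Over all genes 92 were called (73.9% higher), 405 with DESeq2 (64.0%), 305 with voom weights (60.0%), 55 with the length offset, 49 and 50 on TPM (87.8 and 90.0%) and 198 at an adjusted p under 0.1. Leaving out 1 library gave 17 (without WT library 2) to 65. Of all pathway genes 0 passed, 10 with DESeq2 and 5 with voom. By list, DESeq2 and voom called 3 and 2 primary granule, 2 and 1 early myeloid and 4 and 2 mature neutrophil genes, and DESeq2 1 secondary granule gene. With a library left out, 0 to 1 primary granule genes passed, and 0 to 1 over all pathway lists (Slpi, a protease inhibitor, without KO library 1).

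Sample numbers 1 to 3 with the replicate block gave 21 calls over all genes (95.2% higher) and 0 of the 10 genes, against 51 without WT library 4, which holds the same libraries. Deviations of same-numbered libraries had correlations of 0.124, -0.0406 and -0.271, and those of differently numbered libraries ran from -0.231 to 0.261. With so few libraries these values cannot show whether the numbers pair them. Bpi and 5 basophil and mast cell markers had too few reads to be tested.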
